A study of Mus musculus with 2 samples.

Results

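The genes described here encode the machinery that brings secreted and membrane proteins into the endoplasmic reticulum (ER), folds them there, removes those that fail to fold, and senses stress when the load is too high. They were taken as a list of 39 gene symbols, and each symbol was represented by its brightest probe set among those that name a single gene. All 39 were found among the 18194 genes named on the arrays. The series consisted of 2 Affymetrix Mouse Genome 430 2.0 arrays, 1 for the colon and 1 for the small intestine, both hybridised with total RNA from biopsies of adult wild-type mice that carried no stated treatment. The comparison of both intestinal regions was the only one the design allowed. With 1 array per tissue there was no replicate check, no test was run, and every difference below is that between these arrays. The study's methods name jejunum and distal colon of C57B6 mice as tissue, in the description of its sequencing libraries. Whether the arrays used the same tissue, how many mice stood behind an array and whether their RNA was pooled are not stated in the sources used here.

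Proteins bound for secretion enter the ER through the Sec61 channel, lose their signal peptide and are folded by chaperones and disulfide isomerases. Proteins that stay unfolded are recognised, moved back to the cytosol and degraded, a process called ER-associated degradation. The sensors IRE1, ATF6 and PERK respond to unfolded proteins, and their signals raise the transcription of chaperone genes. In the gut this system is best known from goblet cells, Paneth cells and plasma cells, which make large amounts of mucin, antimicrobial peptides and antibodies.

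Part of these genes share a stretch of promoter sequence, the ER stress element (ERSE), to which ATF6 binds together with the general factor NF-Y. The element was first described in promoters of such chaperone genes, so its presence here is a description and no independent result. The promoter table of RefSeq (assembly GRCm38.p6), with windows of 250 bases before to 50 bases after an annotated start, covered 30 of the 39 genes. Ern2, Atf6, Creb3l1, Manf, Hyou1, Derl1, Sec61a1, Ssr2 and Spcs3 were not among them. The letters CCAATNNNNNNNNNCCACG, searched on both strands, occurred in 9 of the 30 genes and in 37 of all 27025 genes of the table (0.137%), or 39 of its 32851 windows (0.119%). The matches are shown because they are the sequence that these 9 genes have in common, each with 5 bases on either side and with the fixed ends of the element in capitals. Hsp90b1 held a pair of them.

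Hspa5, chr2:34772020-34772048, plus strand: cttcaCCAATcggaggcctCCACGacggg
Calr, chr8:84847070-84847098, plus strand: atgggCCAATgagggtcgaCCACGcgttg
Derl3, chr10:75893237-75893265, minus strand: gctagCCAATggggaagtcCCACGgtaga
Hsp90b1, distal, chr10:86705633-86705661, minus strand: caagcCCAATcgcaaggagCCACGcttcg
Hsp90b1, proximal, chr10:86705528-86705556, plus strand: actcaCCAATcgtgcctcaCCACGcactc
Canx, chr11:50325795-50325823, minus strand: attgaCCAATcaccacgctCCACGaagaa
Pdia6, chr12:17266486-17266514, plus strand: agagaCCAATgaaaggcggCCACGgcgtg
Dnajc3, chr14:118937822-118937850, plus strand: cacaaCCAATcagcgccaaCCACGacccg
Creld2, chr15:88819515-88819543, minus strand: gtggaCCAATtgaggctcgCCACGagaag
Syvn1, chr19:6046527-6046555, plus strand: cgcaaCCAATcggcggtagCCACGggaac

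A shorter form, ERSE-II, with the letters ATTGGNCCACG and the same CCACG end, was found in Herpud1 and Dnajb11. It occurred in 12 genes of the table (0.0444%), or 0.0365% of its windows. Neither Herpud1 nor Dnajb11 held a match of ERSE.

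Herpud1, chr8:94386372-94386392, plus strand: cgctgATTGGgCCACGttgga
Dnajb11, chr16:22857847-22857867, plus strand: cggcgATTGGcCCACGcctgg

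The letters TGACGTGG, a site bound by XBP1 and ATF6 and known as UPRE, were in none of the 30 genes' windows and in 0.676% of all windows. Their absence says only that these letters do not occur in this window.

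**Figure D1:**
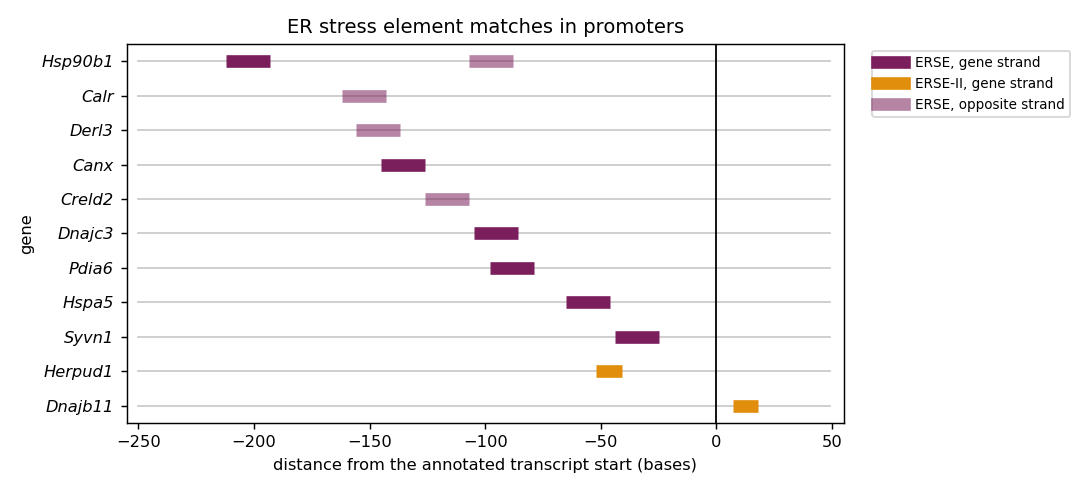
Positions of ERSE and ERSE-II matches in the promoters of 11 ER folding genes. The horizontal axis gives the distance in bases from the annotated transcript start (black line), each grey line is the window searched for 1 gene, and pale bars are matches on the strand opposite to the gene. The ERSE matches begin between 212 and 44 bases before the start, and that of ERSE-II in Dnajb11 lies within the transcribed part.

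Markers of another organ differed between the arrays. Of 16 measured markers of the exocrine pancreas 13 were more than 3-fold higher in colon (median difference -5.31), and 12 of the 16 were at or below background in small intestine. Their summed level was 16.26 (log2) in colon and 12.83 in small intestine. Cela3b (13.95), Sycn (13.80), Ctrl (12.79) and Cela2a (12.74) had the largest differences of the list, of at least 496-fold, 446-fold, 222-fold and 214-fold, being below background in small intestine. The acinar factors Ptf1a and Rbpjl were below background on both arrays, and Clps was high on both, with 13.53 in colon and 12.68 in small intestine. With 1 colon array no value could be given without it, and the part of these transcripts in the differences described here was not tested.

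On the arrays, the levels of most of these genes differed little between the colon and the small intestine, and 4 genes stood out. The IRE1 isoform Ern2, the membrane-bound factor Creb3l1 and the disulfide isomerase Pdia5 were more than 3-fold higher in colon, and the chaperone partner Sdf2l1 was more than 3-fold higher in small intestine. All 39 genes lay above the background level of 5 (log2) on both arrays, with values from 6.07 to 13.96. Thus 3 of 39 were higher in colon by the 3-fold rule, against 4.80% of the 9814 genes that lay above background on both arrays and 3.33% of all named genes. In the small intestine 1 of 39 was higher, against 4.81% and 3.46%. A difference of 2-fold or more in either direction was found for 7 of 39 genes and for 23.3% of the 9814. These counts are small, and nothing about the group as a whole is read from them.

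**Figure D2:**
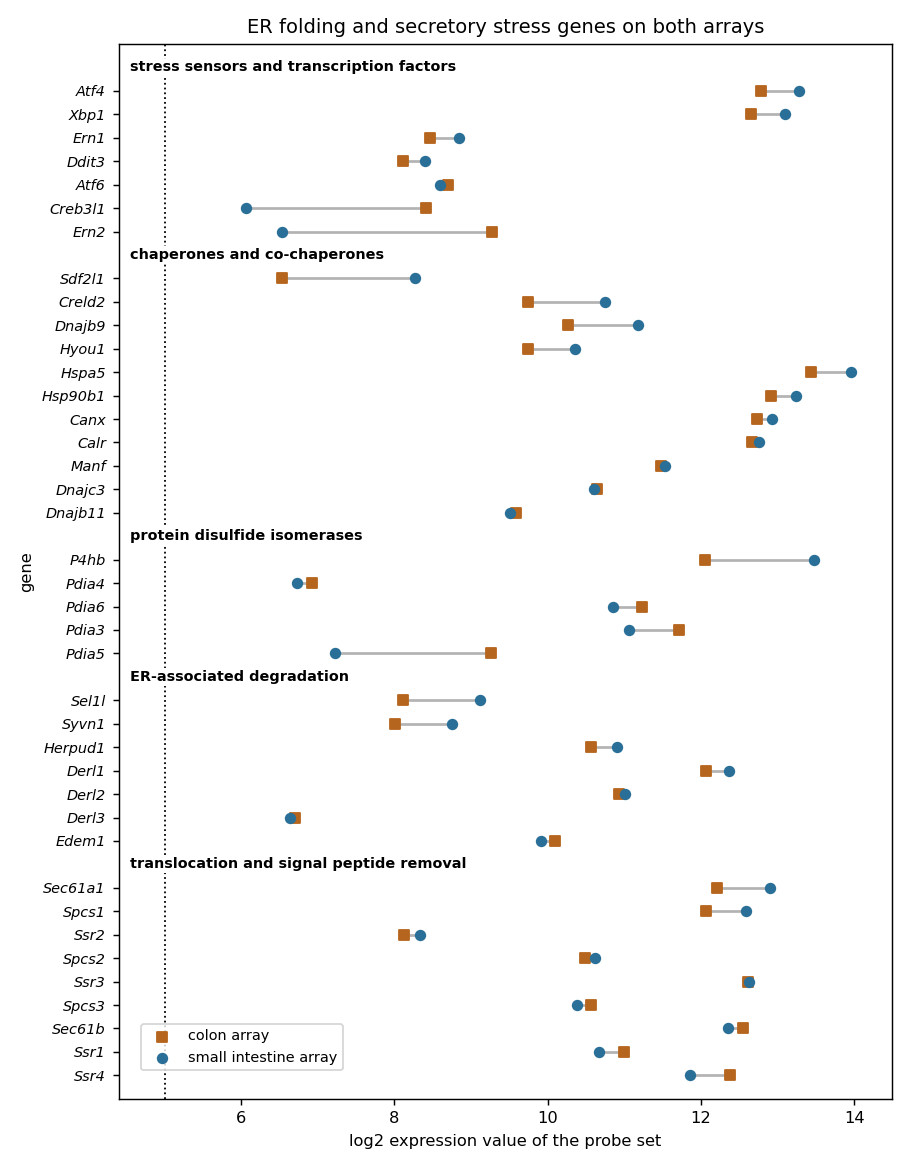
Log2 expression value of each gene's brightest probe set (horizontal axis) on the colon array (squares) and the small intestine array (circles), with genes grouped by role and a dotted line at 5, the level taken as background. Long grey lines mark Ern2, Creb3l1 and Pdia5 with the higher value in colon, and Sdf2l1 and P4hb with the higher value in small intestine.

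The stress sensors and transcription factors held both of the largest differences. Ern2 encodes IRE1 beta, a form of the sensor IRE1 that is restricted to mucus-producing epithelia. It had a log2 level of 9.27 on the colon array and 6.53 on the small intestine array, which is 6.70-fold higher in colon. By size this difference ranked 258 among the 9814 genes above background on both arrays. Ern1, which encodes the widely expressed form IRE1 alpha, had 8.46 in colon and 8.84 in small intestine, a log2 difference of 0.38 in favour of the small intestine. The pair of IRE1 genes had opposite signs, but the difference of Ern1 was small (1.30-fold). It was below the pooled SD of 0.45 between probe sets of a gene. With the median of its probe sets, dim ones counted at background, it became 0.00.

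Creb3l1 encodes OASIS, a transcription factor that is held in the ER membrane and released by cleavage, like ATF6. It had 8.41 in colon and 6.07 in small intestine (5.06-fold), with rank 368. The other factors were close on both arrays. Xbp1, whose transcript is spliced by IRE1, had 12.65 in colon and 13.10 in small intestine, and this probe set value does not tell spliced from unspliced transcripts. The other probe sets of Xbp1, given below, differed in direction. Atf4, the factor translated when PERK is active, had 12.78 and 13.28, and Ddit3, the stress-induced factor CHOP, had 8.12 and 8.39. Atf6 had 8.70 in colon and 8.59 in small intestine. Of the 7 genes of this group 2 were higher in colon by 3-fold and 5 differed by less than 2-fold, with a median difference of 0.28. The direction of this median was not settled. It was 0.00 with the median of a gene's probe sets and -0.10 without probe sets marked _x, _s or _a.

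By their brightest probe sets, most chaperones and their partners had a slightly higher value in small intestine. Of 11 genes 9 had the higher value there, 1 of them by 3-fold, and the median difference was 0.32. Among these 9, Hsp90b1, Canx, Calr and Manf differed by less than the pooled SD of 0.45 between probe sets of a gene, given below. The small intestine value was the higher one for 46.3% of the 9814 genes above background, whose median difference was -0.07. Sdf2l1 is a small luminal protein that works with BiP and the co-chaperone ERdj3. It had 6.53 in colon and 8.27 in small intestine (3.33-fold), with rank 770 by size. Creld2, a secreted ER stress protein, had 9.74 and 10.75 (2.02-fold). Dnajb9, the co-chaperone ERdj4, had 10.27 and 11.17 (1.88-fold). Hyou1, a large chaperone that exchanges the nucleotide of BiP, had 9.74 and 10.36 (1.53-fold).

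The abundant chaperones differed less. Hspa5, which encodes BiP, the main Hsp70 of the ER and the classical target of the stress response, had 13.44 in colon and 13.96 in small intestine (1.44-fold). Hsp90b1, the Hsp90 of the ER, had 12.92 and 13.24. A second probe set of each was slightly higher in colon, with 12.76 and 12.70 for Hspa5 and 10.25 and 10.13 for Hsp90b1. The remaining probe set of Hspa5 had 8.74 in colon and 9.02 in small intestine. The lectin chaperones that hold glycoproteins, Calr and Canx, had 12.67 and 12.74 in colon and 12.76 and 12.93 in small intestine. Manf, a small ER protein that can be secreted, had 11.48 and 11.54. The co-chaperones Dnajb11 (ERdj3) and Dnajc3 (p58IPK) were minimally higher in colon, with 9.58 and 10.65 there and 9.50 and 10.60 in small intestine. Sdf2l1 was thus apart from its partners Hspa5 and Dnajb11, whose differences were 0.52 and -0.08 on the log2 scale.

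Disulfide isomerases form and rearrange the disulfide bonds of proteins in the ER, and their differences went in both directions. Pdia5 had 9.26 in colon and 7.22 in small intestine (4.11-fold), with rank 537. P4hb, the founding disulfide isomerase, is also a subunit of prolyl hydroxylase and of the microsomal triglyceride transfer protein that loads lipoproteins. It had 12.06 in colon and 13.47 in small intestine (2.67-fold), which is below the 3-fold rule. Pdia3, the isomerase that acts on glycoproteins bound to calnexin and calreticulin, had 11.71 and 11.06. Pdia6 had 11.23 and 10.86, and Pdia4 had 6.92 and 6.73. Of the 5 genes 4 had the higher value in colon, 1 of them by 3-fold, and the median difference was -0.37. By the 3-fold rule 4.80% of the 9814 genes were higher in colon, and nothing is read from counts among 5 genes.

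None of the 7 genes of ER-associated degradation reached 3-fold in either direction, and 5 had the higher value in small intestine (median difference 0.30). Sel1l and Syvn1 encode the core of the ubiquitin ligase complex in the ER membrane. Sel1l had 8.11 in colon and 9.12 in small intestine (2.01-fold), and Syvn1 had 8.01 and 8.75 (1.68-fold). Herpud1, a membrane protein that organises this complex, had 10.57 and 10.91. Edem1, which marks misfolded glycoproteins by trimming their mannoses, had 10.10 and 9.92. Among the derlins, which help to move proteins out of the ER, Derl1 had 12.07 in colon and 12.36 in small intestine. Derl2 had 10.92 and 11.01. Derl3, the derlin known from secretory tissues such as the pancreas, was nearly equal with 6.70 and 6.64.

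All 9 genes of translocation and signal peptide removal differed by less than 2-fold by their brightest probe sets. So did 76.7% of the 9814 genes used for comparison, and nothing is read from this count. In ER-associated degradation only Sel1l was past 2-fold, at 2.01-fold. Its difference became 0.00 with the median of its probe sets, dim ones counted at background. Sec61a1, the pore of the translocation channel, had 12.20 in colon and 12.90 in small intestine (1.62-fold), while its small subunit Sec61b had 12.55 and 12.35. The subunits of the translocon-associated protein complex did not share a direction. Ssr1 and Ssr4 had 11.00 and 12.37 in colon and 10.67 and 11.86 in small intestine, and Ssr2 and Ssr3 had 8.13 and 12.62 in colon and 8.33 and 12.63 in small intestine. Of the signal peptidase subunits, Spcs1 had 12.06 and 12.59, Spcs2 had 10.49 and 10.62, and Spcs3 had 10.57 in colon and 10.38 in small intestine. The median difference of the group was 0.01.

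Across the 39 genes the median difference was 0.13 on the log2 scale (0.05 with the median of a gene's probe sets and 0.03 without probe sets marked _x, _s or _a, which left 32 genes), and the middle of the distribution, from the lower to the upper quartile, ran from -0.18 to 0.51. Over the 9814 genes above background on both arrays it ran from -0.57 to 0.44. The value in small intestine was the higher one for 24 of 39 genes and for 46.3% of the 9814, and some of the 24 signs turned with the probe sets chosen. The genes with an ERSE or ERSE-II match had differences from -0.37 (Pdia6) to 1.01 (Creld2) with a median of 0.19, and none of these 11 reached 3-fold. Among the 9814 genes 4.81% were 3-fold higher in small intestine and 4.80% in colon, so that nothing is read from this count. The 19 genes with a promoter in the table but neither match had a median of 0.13. Of the 4 genes past 3-fold, Sdf2l1 and Pdia5 had a window with neither match, and Ern2 and Creb3l1 had no window in the table.

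**Figure D3:**
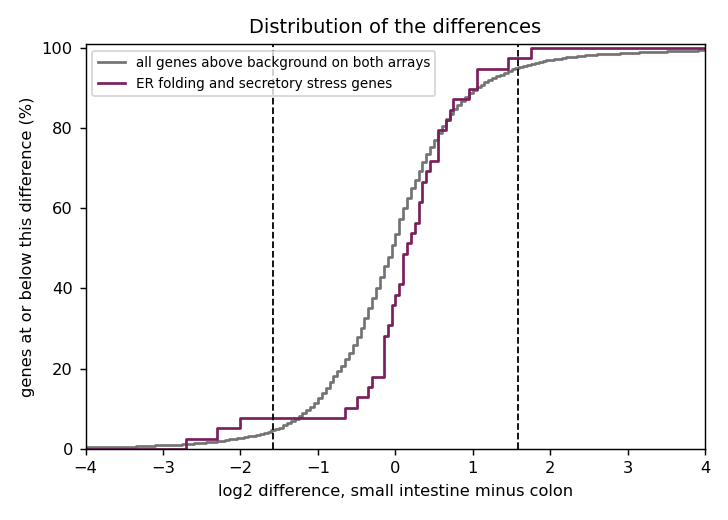
Cumulative share of genes (vertical axis, percent) at or below a given log2 value in small intestine minus colon (horizontal axis), for the 39 ER folding and secretory stress genes and for all 9814 genes above background on both arrays, with dashed lines at 3-fold. The line of the 39 genes is steeper in the middle, where its quartiles are -0.18 and 0.51 against -0.57 and 0.44.

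The probe sets of a gene gave the only view of technical spread. In all 92 probe sets named 1 of the 39 genes alone, and 75 of them lay above background on at least 1 array. Each of the 4 genes past 3-fold had a single probe set, so that none of these differences could be compared with a second one. Of the 21 genes with several probe sets above background, 11 (52.4%) had one direction in all of them and 10 had both. Over all genes of the arrays with several such probe sets, 2637 of 4142 (63.7%) had one direction. For Xbp1, the other 3 probe sets had 11.43, 11.27 and 11.95 in colon and 11.91, 11.16 and 11.15 in small intestine, so that its direction was not settled. Within a gene, the difference varied from one probe set to another with a pooled SD of 0.45 for these 21 genes and 0.60 for the 4142 genes of the arrays with several such probe sets, values below background being raised to it. In 22 of the 39 genes the difference of the brightest probe set was smaller than the pooled SD of these genes.

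None of the other 36 probe sets above background reached 3-fold, and 4 of them reached 2-fold with values below background raised to it, all with the higher value in small intestine. A pair of these belonged to Derl1, with 7.39 and 7.58 in colon and 8.60 and 8.80 in small intestine. The others were that of Edem1 with 9.22 in colon and 10.57 in small intestine, and that of Canx with 8.29 and 9.39. For Sel1l, the other probe sets had 6.17 and 5.51 in colon and 6.90 and 4.82 in small intestine, so that they differed in direction. The second probe set of Edem1 thus went against its brightest one. A dim probe set that names Sec61b together with Gm10320 was not used.

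**Figure D4:**
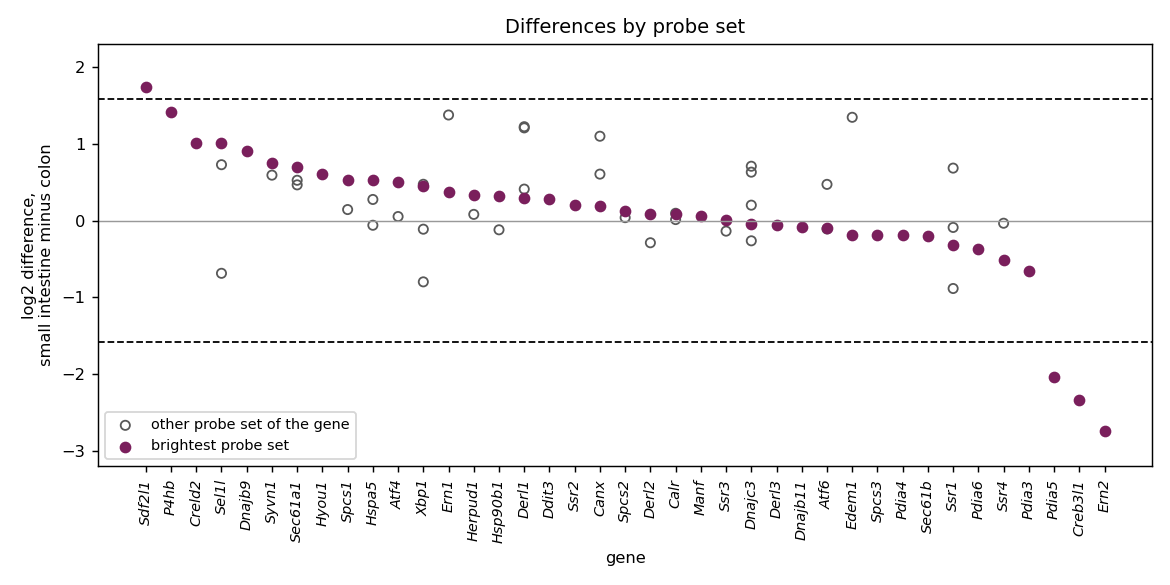
Log2 value in small intestine minus that in colon (vertical axis) for every probe set above background that names 1 of the 39 genes alone, with genes ordered by their brightest probe set (filled) and the other probe sets as open circles. Dashed lines mark 3-fold. Ern2, Creb3l1, Pdia5 and Sdf2l1, the genes past the lines, have 1 point each.

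The other parts of the secretory pathway were described by 7 lists of 112 genes, of which 108 were measured. In these lists 5 genes were higher in small intestine by 3-fold and 7 in colon, and the median difference was 0.02. Among the 9814 genes above background on both arrays the shares were 4.81% and 4.80%. Nothing is read from these counts or from those of the single lists. The membrane-bound relatives of ATF6 and OASIS differed in both directions. Creb3l3, a factor of liver and small intestine that acts in lipid metabolism, had 6.64 in colon and 10.84 in small intestine (18.5-fold), and Creb3l2 had 5.83 and 7.42, just past 3-fold. Creb3l4 had 9.19 in colon and 6.56 in small intestine (6.19-fold), the same direction as Creb3l1. Bhlha15, the factor Mist1 of secretory cells, had 5.82 and 7.42 (3.03-fold). The site proteases that cleave these factors, Mbtps1 and Mbtps2, had 10.06 and 7.87 in colon and 9.81 and 8.29 in small intestine.

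Of 11 measured genes of the PERK branch, Trib3, a pseudokinase induced by ATF4 and CHOP, had 4.67 in colon, below background, and 8.38 in small intestine (at least 10.4-fold). Nupr1, a stress-induced nuclear protein, had 13.30 in colon and 10.40 in small intestine (7.46-fold). Next by size in that list were Atf3 with 7.04 and 8.10 and Cebpb with 8.02 and 9.06, and the sensor PERK itself (Eif2ak3) had 9.28 and 8.91. Of 17 other ER oxidoreductases 3 reached 3-fold, all with the higher value in colon. Agr2, the isomerase needed for mucin folding in goblet cells, had 14.86 in colon and 12.66 in small intestine (4.60-fold), Pdia2 (the isomerase of the pancreas) had 7.14 and 5.52 (3.08-fold), and Txndc16 had 7.14 and 5.55 (3.01-fold). In the opposite direction Prdx4, the ER peroxiredoxin, had 9.12 and 10.23 (2.17-fold).

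The remaining lists held few large differences. Of 16 genes of N-glycan transfer and trimming, Tusc3, a subunit of the oligosaccharyltransferase, was higher in colon (9.95 against 7.92, 4.07-fold). It was followed by Rpn1 with 14.51 in colon and 13.45 in small intestine, Krtcap2 with 11.83 and 10.93, and Prkcsh with 7.02 and 7.83. Of 17 other genes of ER-associated degradation, the lectin gene Erlec1 was higher in colon (11.33 against 9.72, 3.05-fold), and Nploc4 (5.91 and 6.93), Os9 (6.61 and 7.47) and Herpud2 (8.95 and 9.66) had higher values in small intestine. None of 16 other translocation genes reached 3-fold, the widest being Srp19 with 12.51 in colon and 11.25 in small intestine. Tram2 (5.48 and 6.56), Srp68 (8.42 and 9.47) and Sec61a2 (6.70 and 5.76) came next. Of 23 genes of ER to Golgi transport, the cargo receptor Surf4 was higher in small intestine (9.25 in colon, 11.05 in small intestine, 3.50-fold), and Sec13 (9.21 and 10.71), Kdelr1 (9.37 and 10.85) and Sec23a (10.67 and 12.12) had the next largest differences, all in that direction.

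Markers of secretory cell types also differed between the arrays. Vil1 and Krt19, general markers of gut epithelium, were far above background on both arrays. Of 14 goblet cell markers 7 were 3-fold higher in colon, and their median difference was -1.54. Ern2, Creb3l1, Pdia5 and Agr2 were higher there too, but so were the lists of smooth muscle (median -1.75) and exocrine pancreas (median -5.31). The summed level of the goblet markers was 17.94 (log2) in colon and 16.87 in small intestine, where Retnlb and Best2 were below background. Klk1 (20.6-fold), Spdef (6.83-fold), Muc2 (6.76-fold) and Retnlb (at least 359-fold) led the list. The list was not uniform, since Fcgbp, Zg16, Foxa3, Tff3 and Spink4 differed by less than 2-fold. Of these, Tff3 (14.12 in colon, 14.61 in small intestine) and Spink4 (14.23 and 14.31) had the higher value in small intestine. Of 10 smooth muscle markers 6 were higher in colon (median -1.75, sums 14.62 and 13.18), with Cnn1 at 4.26-fold, Myh11 at 3.86-fold, Smtn at 3.57-fold and Tagln at 3.53-fold.

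In the small intestine the Paneth and plasma cell lists were higher, as were Sdf2l1 and P4hb. Of the 21 Paneth cell markers 11 were measured, and 7 of these were 3-fold higher there (median 2.56, sums 15.26 in colon and 17.68 in small intestine), led by Defa39 (at least 1441-fold), Itln1 (217-fold), Mmp7 (116-fold) and Reg3a (at least 66.5-fold). In colon 5 of the 11 were below background, namely Defa39, Reg3a, Pla2g2a, Defa3 and Dll3. The last pair, Defa3 and Dll3, was below background in small intestine too. Ang4 (14.36 in colon, 14.47 in small intestine) and Fgfrl1 (8.09 and 8.46) differed little. Of 12 plasma and B cell markers 4 were 3-fold higher in small intestine (median 1.13, sums 15.17 and 16.13), namely Pou2af1 (8.03-fold), Mzb1 (4.61-fold), Cd79b (3.82-fold) and Prdm1 (3.67-fold), with Irf4, Tnfrsf17 and Cd79a below background in colon. The antibody genes Igha (2.21-fold), Jchain (1.86-fold) and Ighm (1.77-fold) were higher in small intestine by less than 3-fold. Sdc1 went the other way, with 12.17 in colon and 11.69 in small intestine. The pan-epithelial markers had a median of 0.00, with Vil1 3.02-fold higher in small intestine as the 1 of 10 past 3-fold. Cldn7 (1.93-fold, small intestine), Elf3 (1.71-fold, colon) and Krt19 (1.58-fold, colon) followed. Fewer cells of a type and less RNA per cell cannot be told apart in whole tissue, and the part of these cell types in the differences of Ern2, Creb3l1, Pdia5, Sdf2l1 and P4hb was not tested.

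**Figure D5:**
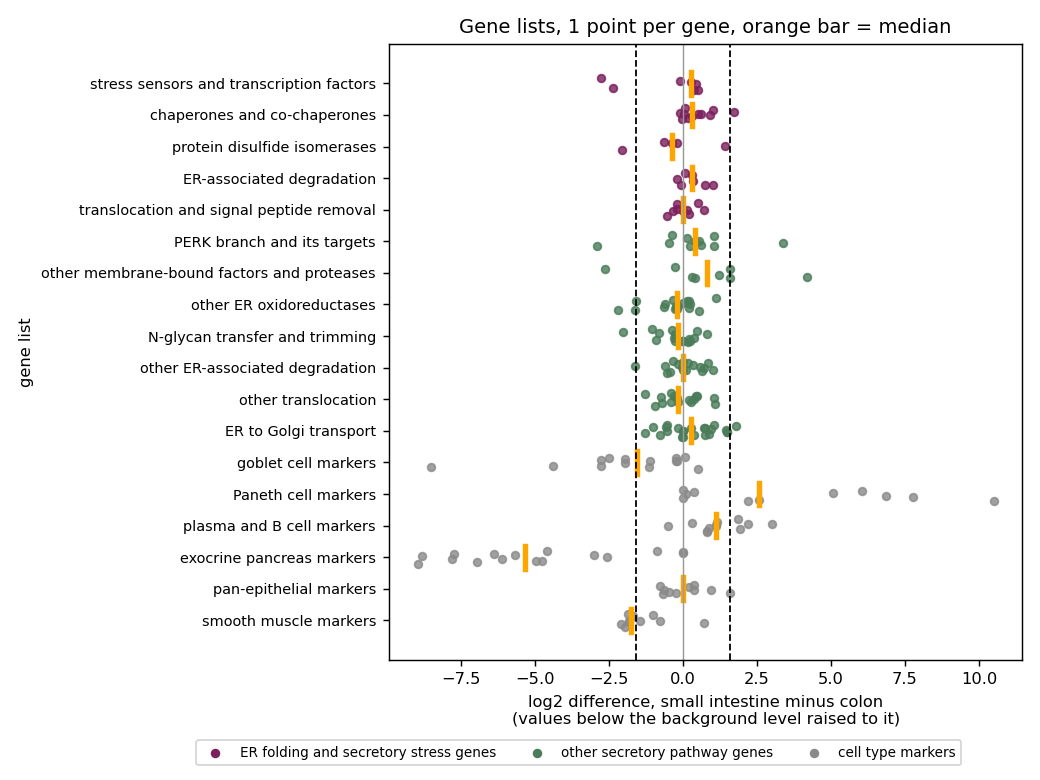
Log2 value in small intestine minus that in colon (horizontal axis, values below background raised to it) for each gene of the 5 role groups, the 7 lists of other secretory pathway genes and the 6 marker lists, with orange bars as medians and dashed lines at 3-fold. Medians of the role groups lie between -0.37 and 0.32, whereas those of the marker lists run from -5.31 for the exocrine pancreas to 2.56 for Paneth cells.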

How the data were processed

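Values deposited by the authors were log2 expression values per probe set, made with GCRMA per the labels, while RMA is the method given in the study. No version is given, and the arrays that were normalized together are not given in the sources used here. GCRMA corrects for probe base composition and can widen folds against dim values. All 45101 probe sets were used as deposited, of which 34958 named 1 gene in the platform annotation and 932 named several. The brightest probe set of each gene was taken, values below 5 were raised to 5, and a gene was called at 3-fold. Folds of genes at background are lower bounds. Every gene of the list of 39 is named, as are the 4 largest differences of each other list (a few more were added after their values were seen, such as Eif2ak3, Mbtps1 and Mbtps2). The genes and lists were chosen with earlier results of these data known. Identifiers were matched to the RefSeq gene table. Protein sequences were not analysed here. The calls and the motif search were tested on simulated data. Alternatives were other background levels, folds, normalizations and probe set choices. The number of arrays limits the precision. Python 3.11.15, numpy 2.4.6, pandas 2.3.3 and matplotlib 3.10.9 were used.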

Additional observations from a re-analysis of the deposited data

How the results depend on the processing

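No paired analysis was possible because each tissue had 1 array and the labels carry no replicate numbers. Ern2, Creb3l1 and Pdia5 in the colon and Sdf2l1 in the small intestine stayed past 3-fold with background levels of 4 and 6, without a floor, after quantile normalization, after centring on the array median or on hybridization spike-ins, and with either other choice of probe sets, which changes nothing for genes with 1 probe set. All values of these genes lay above 6, so that the choice of background level could not change their differences. Centring shifted all genes alike and by little, since the arrays differed by -0.02 in median and by -0.01 in spike-ins (log2). At 2-fold the count in the small intestine was 4 in place of 1, and at 5-fold it was 0, with 2 genes left in the colon. The median over all 39 genes, 0.13, was 0.05 when a gene was given the median of its probe sets and 0.03 without probe sets marked _x, _s or _a. The group medians depended on the probe sets chosen. When a gene was given the median of its probe sets, the stress sensors and factors had 0.00, the chaperones 0.20 and the disulfide isomerases -0.18. Dim probe sets then count at the background level, and the differences of Ern1, Hyou1 and Sel1l, which was past 2-fold, became 0.00. Without probe sets marked _x, _s or _a, which left 32 of 39 genes, these were -0.10, 0.48 and -0.51, and that of ER-associated degradation was 0.47. The sign turned for Derl2, Dnajc3, Edem1 and Ssr3 with the first choice, for Xbp1 with the second and for Dnajc3 after quantile normalization. The cause was not tested. No alternative could replace the missing replicate arrays.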
